A study of Mus musculus with 7 samples.

Results

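A set of 10 genes that handle iron and heme was described in macrophages sorted from intracranial mouse gliomas. They are Hmox1, Blvra and Blvrb of heme breakdown, Slc40a1, Tfrc and Slc11a1 of iron transport, Fth1 and Ftl1 of iron storage, and the secreted binding proteins Hp and Lcn2. They were chosen by name, and all 10 were found among the 55385 gene IDs of the count tables. The host mice were C57BL/6, and each received 100000 QPP7 glioma cells in the brain. QPP7 is described by the labels as an isogenic line, and its cells bore 1 of the hairpins shChi3l1, against Chi3l1 (3 libraries), and shSC, the control (4 libraries). The protein made from Chi3l1 is a secreted chitinase-like one. The knockdown was in the tumour cells, so the macrophages of both groups carried no hairpin of their own by the labels. Each group is named by 1 hairpin, and neither the age of the mice nor whether a library came from 1 mouse is given in the labels. P-values therefore measure the spread between these libraries, which may be partly technical.

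Macrophages take up dying red cells and free hemoglobin, and heme oxygenase 1 opens the heme ring to release iron, carbon monoxide and biliverdin. Biliverdin reductases turn biliverdin into bilirubin, while the iron is stored inside a ferritin shell or leaves through ferroportin, the only known cellular iron exporter, encoded by Slc40a1. Iron regulatory proteins bind a hairpin in the RNA, the iron-responsive element, when iron is short. Bound near the start of a transcript they hold back its translation, and bound beyond the coding region of the transferrin receptor transcript they keep it from being degraded. In tumours, macrophages can be either iron-storing or iron-releasing.

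Of the 10 genes, 4 held such an element in their transcripts. The genes were chosen by name for iron and heme handling, and the element controls genes of iron handling. The match is therefore no independent finding, and the shares of all genes below are given for scale alone. The motif searched, on the transcript strand alone, was a C, then 5 bases, the loop CAGTGN and 5 bases that pair with the 5 before the loop, G with T allowed. Its first C is the bulged base of the stem. It was found in the 5′ UTR of Fth1, Ftl1 and Slc40a1 and, at 4 places, in the 3′ UTR of Tfrc, and in no UTR of the other 6 genes. Over all annotated coding genes it was found in 0.151% of those with a 5′ UTR (31 of 20580) and in 0.615% of those with a 3′ UTR (129 of 20978). The 29-base windows below are shown because they set apart the storage, export and uptake genes of the set, with the loop of the hairpin in capitals and in DNA letters of GENCODE transcripts (mm10 coordinates). They show the 3 single elements and the first and the last of those in Tfrc.
Fth1 5′ UTR, chr19:9982732-9982760, plus strand: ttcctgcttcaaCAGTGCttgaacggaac
Ftl1 5′ UTR, chr7:45459779-45459807, minus strand: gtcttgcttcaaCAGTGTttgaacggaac
Slc40a1 5′ UTR, chr1:45925465-45925493, minus strand: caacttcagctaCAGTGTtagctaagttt
Tfrc 3′ UTR, chr16:32631219-32631247, plus strand: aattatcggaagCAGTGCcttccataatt
Tfrc 3′ UTR, chr16:32631710-32631738, plus strand: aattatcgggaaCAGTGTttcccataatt
A match is a description of the letters and no measure of binding. Because binding in a 5′ UTR acts on translation, the RNA counts below do not show that part of the control.

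The libraries held 19169129 to 36502664 reads assigned to genes. All 10 macrophage markers on a fixed list were measured in every library, among them Lyz2, the lysozyme gene, at 10458 to 33969 CPM. CPM are read counts scaled to library size, here after TMM scaling, which adjusts totals for differences in composition. Markers of other cells were uneven. The library shSC 4 had the highest summed level of 9 glioma and glial markers (252 CPM against 39.1 to 99.7 in the other libraries) and of 9 erythroid markers (77.6 against 2.67 to 32.9 CPM). The library shChi3l1 3 had the highest sums of 8 microglial (3653 against 874 to 1903 CPM) and 6 B-cell markers (1798 against 78.7 to 490 CPM). The 10 macrophage markers summed to 35697 to 55070 CPM in shChi3l1 and 27258 to 37478 CPM in shSC libraries. All 8 microglial markers had a positive log2 fold change, as 57.6% of all genes did. Of the 8, 4 had an unadjusted edgeR p under 0.05, where 0.906% of all genes were higher at that threshold. The microglial sums were 1110, 1903 and 3653 CPM in shChi3l1 libraries 1 to 3 and 874 to 1573 CPM in shSC libraries. Sums of 7 endothelial markers were 22.7 to 101 CPM and 24.5 to 78.4 CPM, and those of 7 T and NK cell markers were 70.5 to 419 CPM and 62.7 to 568 CPM, in the same order. In bulk RNA, fewer cells of a type and less RNA per cell cannot be told apart.

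No iron or heme gene passed the test between hairpins. In edgeR's quasi-likelihood test over 15448 genes, 0 of the 10 had an adjusted p under 0.05 (background 0.0% of all genes), and 0 had an unadjusted p under 0.05, against 1.48% of all genes (0.906% higher and 0.576% lower in shChi3l1). Log2 fold changes, given throughout as shChi3l1 relative to shSC, were above 0 in 4 members and below 0 in 6, with a median of -0.08. Over all genes 57.6% were above 0 and 42.4% below, with a median of 0.07. The 2 groups overlapped in all 10 members, while they did not overlap in 2.49% of all genes (1.24% higher and 1.25% lower in shChi3l1). No member went the same way in all 3 same-numbered replicates, which 23.2% of all genes did. Every member had an edgeR adjusted p of 0.9998. The interval of 2 standard errors was widest for Lcn2, from -1.65 to 1.35, and for Tfrc it ran from -0.89 to 0.48, so that sizeable differences in either direction lay within them.

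**Figure D1:**
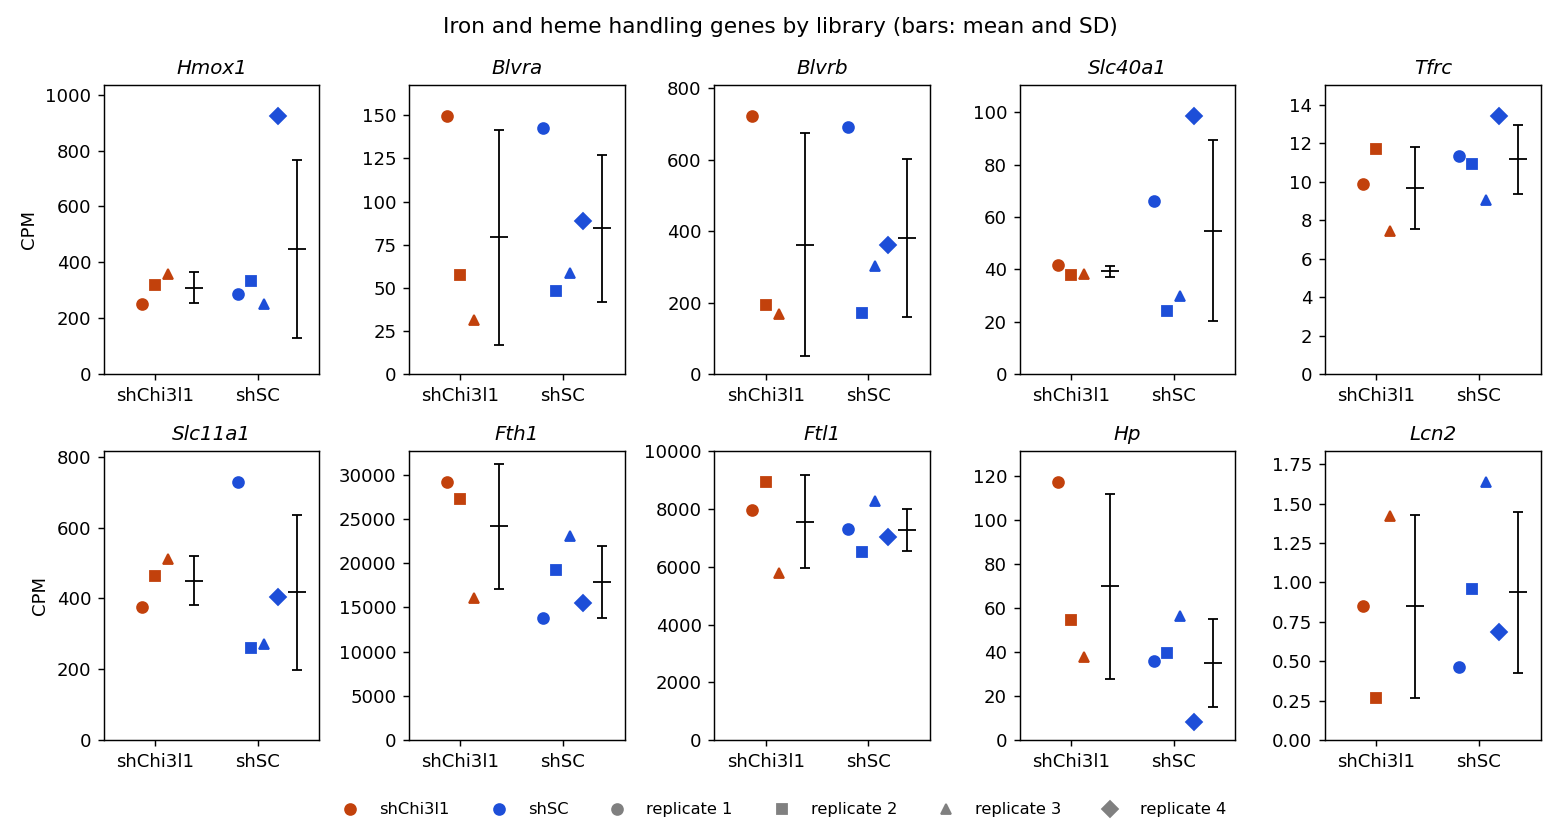
CPM of each of the 10 genes in each library (y axis, from 0, a separate scale per gene), with shChi3l1 in orange, shSC in blue and the marker shape giving the replicate. Horizontal ticks and bars are group means and SD (n = 3 and 4). The groups overlap in every panel, and shSC 4 stands alone in Hmox1 at 924 CPM and in Hp at 8.30 CPM.

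Per length of exon, ferritin transcripts stood far above the rest. Reads were divided by the kilobases of exon for this ordering (CPM per kilobase). Fth1, the heavy chain with the ferroxidase centre that oxidises iron, averaged 5930 CPM per kilobase over the 7 libraries. Ftl1, the light chain that helps form the mineral core, averaged 5521. They ranked 9 and 11 among the 15448 tested genes. Their ranges overlapped, and Fth1 was the higher of the pair in 5 of 7 libraries. Exon length here counts every annotated exon base of a gene, 3469 for Fth1 and 1340 for Ftl1. Before that division Fth1 averaged 20571 CPM and Ftl1 7398 CPM, so their closeness per length depends on it. Places of the other genes in this order depend on annotated length too. Hmox1 followed at 222, Blvrb at 134 and Slc11a1 at 116 CPM per kilobase, with overlapping ranges between neighbours. Blvra was at 33.6 and Hp at 31.1, and their ranges overlapped too. Slc40a1 at 5.34 was above Tfrc at 1.70 in all 7 libraries without overlap, although Slc40a1 and Hp overlapped. Lcn2 was lowest at 0.342 CPM per kilobase. Gaps without overlap therefore lay between Ftl1 and Hmox1, Slc11a1 and Blvra, Slc40a1 and Tfrc, and Tfrc and Lcn2.

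**Figure D2:**
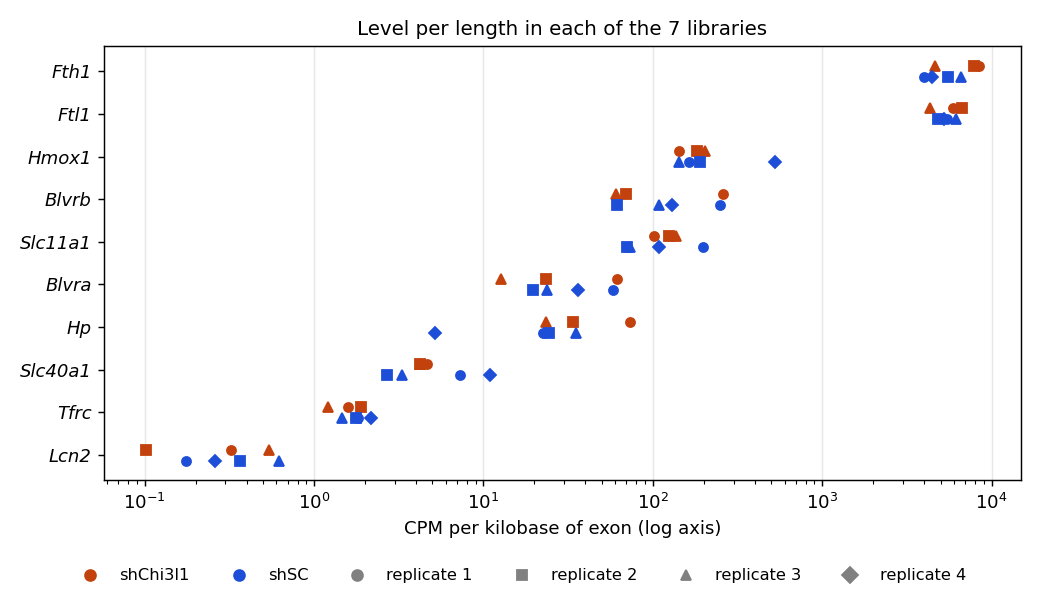
CPM per kilobase of exon (log x axis) for the 10 genes, with 1 point per library, group by colour and replicate by marker shape. Fth1 and Ftl1 are at 3978 CPM per kilobase or more in every library, while Lcn2 reaches at most 0.624.

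Hmox1, which encodes the inducible heme oxygenase, was even across 6 libraries and high in 1 control library. The gene (ENSMUSG00000005413.8) lies on mm10 chromosome 8 from 75093621 to 75100589, plus strand. Its level was 250.7, 319 and 359 CPM in shChi3l1 libraries 1 to 3. In shSC libraries 1 to 4 it was 286, 333, 249 and 924 CPM. The value of shSC 4 stood alone above the others, which overlapped between groups. The shChi3l1 mean was 309 ± 54.6 CPM (SD, n = 3) and that of shSC was 448 ± 319 CPM (SD, n = 4). The log2 fold change was -0.53 (SE 0.51). Without shSC 4 the log2 fold change was 0.10, and with the replicate number as a block, a fit that also leaves out that library, it was 0.09. Within same-numbered replicates the log2 differences were -0.19, -0.06 and 0.52.

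Slc40a1 shared the high value of shSC 4. Ferroportin transcripts (ENSMUSG00000025993.10, chromosome 1, 45908068 to 45926523, minus strand) were nearly level in the shChi3l1 libraries at 41.7, 37.9 and 38.1 CPM. The shSC libraries had 66.0, 24.2, 30.0 and 98.6 CPM, so they enclosed the shChi3l1 values on both sides. The mean was 39.2 ± 2.14 CPM (SD, n = 3) against 54.7 ± 34.6 CPM (SD, n = 4), with a log2 fold change of -0.48 (SE 0.49). It was -0.03 without shSC 4 and 0.11 with the replicate block.

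Spic, a transcription factor gene that iron-recycling macrophages express, showed the same library. It had the smallest unadjusted p of the 12 regulators and targets of NRF2 and BACH1 on a fixed list, and its level was 55.2 CPM in shSC 4 against 7.36 to 17.5 CPM in the other 6 libraries. Its log2 fold change of -1.08 (SE 0.63) became -0.24 without shSC 4. Other genes of heme handling went both ways in shSC 4. Slc48a1, a heme transporter gene, was highest there at 166 CPM. Hmox2, the other heme oxygenase gene, was lowest there at 44.8 CPM. Cd163, the hemoglobin-haptoglobin receptor gene, had no reads in shSC 4 or shSC 3. The 4 hemoglobin chain genes summed to 77.4 CPM in shSC 4, 31.8 CPM in shChi3l1 3 and 2.56 to 16.1 CPM in the other 5 libraries. Among the 9 erythroid markers, Slc4a1, Epb42, Klf1 and Alas2 were at or below 1.14 CPM. Hmox1 was 359 CPM in shChi3l1 3, the library with the second-highest hemoglobin sum, while Slc40a1 was 38.1 CPM there. The 9 glioma and glial markers, of which 8 were tested, also summed highest in shSC 4. Of these, 6 were highest in that library, while Gfap and Mbp, for example, were highest in others. Neither list's part in the Hmox1 and Slc40a1 values was tested.

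**Figure D3:**
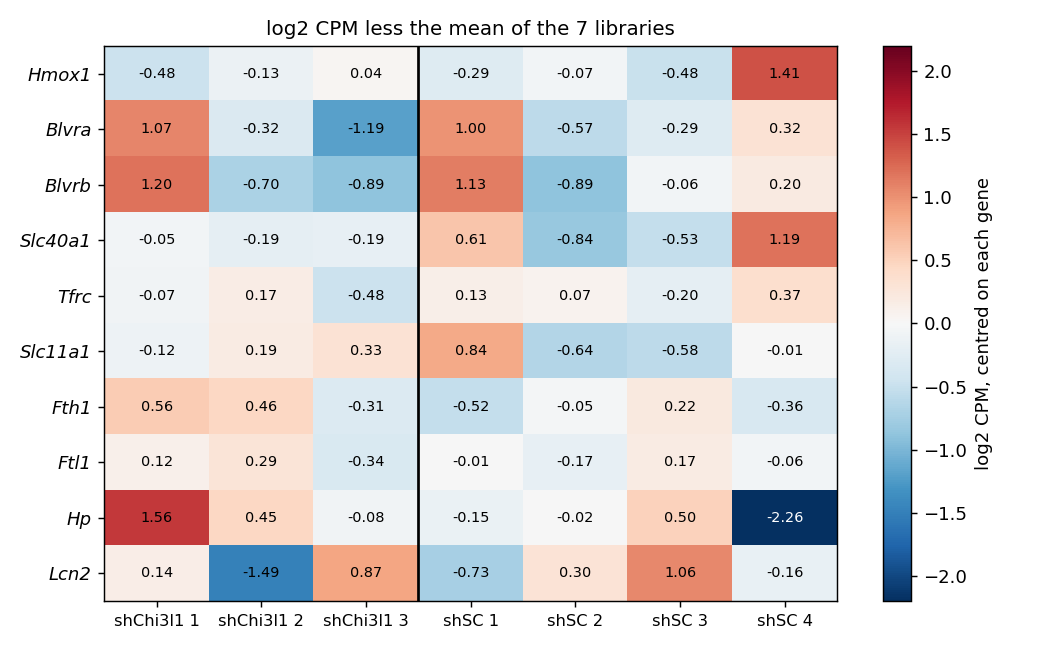
Log2 CPM of each gene less its mean over the 7 libraries (colour and printed value), with genes in rows and libraries in columns, and a line between shChi3l1 and shSC. Hmox1 and Slc40a1 are highest in shSC 4 (1.41 and 1.19), Blvra and Blvrb are highest in both replicate 1 libraries, and Hp is lowest in shSC 4 (-2.26).

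The biliverdin reductases were highest in the replicate 1 library of both groups. Blvrb (ENSMUSG00000040466.16, chromosome 7, 27447978 to 27466144, plus strand) encodes biliverdin reductase B, which is also a flavin reductase. It had 722, 194 and 169 CPM in shChi3l1 replicates 1 to 3. The 4 control libraries had 691, 170.1, 302 and 362 CPM. Both replicate 1 libraries were high, and shChi3l1 2 and 3 and shSC 2 were low. Blvra (ENSMUSG00000001999.15, chromosome 2, 127070665 to 127097084, plus strand) encodes the reductase that yields bilirubin IX-alpha. It followed with 149.6, 57.2 and 31.2 CPM in shChi3l1 and 143, 48.0, 58.3 and 88.9 CPM in shSC libraries. Log2 fold changes were -0.09 (SE 0.57) for Blvra and -0.08 (SE 0.63) for Blvrb, and leaving out either replicate 1 library moved both. They were 0.24 and 0.34 without shSC 1, and -0.99 and -1.13 without shChi3l1 1.

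The read ratio of the 2 reductases varied less than their levels, whose highest library was 4.79 times the lowest for Blvra and 4.27 times for Blvrb. Blvrb had 3.39 to 5.42 times the reads of Blvra in shChi3l1 libraries and 3.54 to 5.18 times in shSC libraries. The mean log2 ratio differed by 0.03 between groups (SE 0.24), and the exact permutation test (two-sided, n = 3 and 4) gave p = 0.886, or 0.971 after adjustment over the 3 ratios tested. The smallest p this design allows is 0.0286. The share of reads in genes of over 5000 exon bases was 12.6% and 14.8% in the replicate 1 libraries of shChi3l1 and shSC and 16.8% to 20.7% in the other 5. Prdx1, a peroxiredoxin gene and the most abundant per length of the NRF2 and BACH1 list, was also highest in those libraries at 5294 and 4366 CPM, against 1074 to 2333 CPM elsewhere. The part of this library property in the reductase values was not tested.

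Ferritin heavy-chain transcripts took 1.25% to 2.51% of all assigned reads. Fth1 (ENSMUSG00000024661.7, chromosome 19, 9980598 to 9985098, plus strand) had 29197, 27251 and 16042 CPM in shChi3l1 libraries. In shSC libraries 1 to 4 it had 13801, 19216, 23039 and 15453 CPM. The first 2 shChi3l1 libraries were above every shSC library, whereas shChi3l1 3 lay among them. The log2 fold change was 0.43 (SE 0.39), and it stayed above 0, from 0.14 to 0.66, under all 16 alternatives. Within same-numbered replicates the log2 differences were 1.08, 0.50 and -0.52. The summed macrophage markers were also highest in shChi3l1 2 and shChi3l1 1, with Lyz2 making up 33969 and 30414 CPM of the sums. Other macrophage markers went both ways in shChi3l1 1. Csf1r at 249 CPM, Adgre1 at 173 CPM and Cd68 at 610 CPM were lowest of all libraries there. Aif1 at 1542 CPM, C1qa at 4522 CPM and C1qb at 9705 CPM were highest of all libraries there. The part of these markers in the Fth1 values was not tested.

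Ftl1 was the steadiest of the 10 genes. This light-chain gene (ENSMUSG00000050708.16, chromosome 7, 45457944 to 45459884, minus strand) had 7953, 8940 and 5784 CPM in shChi3l1 and 7294, 6502, 8271 and 7043 CPM in shSC libraries. Its highest library was 1.55 times its lowest, and its log2 fold change was 0.05 (SE 0.34). Its values are uncertain in part, since 34.6% of its exon bases are overlapped by other annotated genes. One of them, Gm10252 on the opposite strand, had 1 to 11 reads per library. The 3 light-chain pseudogenes Ftl1-ps1, Ftl1-ps2 and Ftl2-ps held reads equal to 2.02% to 3.17% of those of Ftl1, and the 2 counted heavy-chain pseudogenes 0.0159% to 0.0378% of those of Fth1. Reads of such copies can be assigned to either.

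The ratio of heavy-chain to light-chain reads can be taken within a library without any scaling. It is an RNA ratio and no measure of the subunits in the ferritin shell. Reads were not divided by exon length here, which is 3469 bases for Fth1 and 1340 for Ftl1. Reads of Fth1 per read of Ftl1 were 3.67, 3.05 and 2.77 in shChi3l1 libraries 1 to 3. The shSC libraries 1 to 4 had 1.89, 2.96, 2.79 and 2.19. Replicate 1 differed most, by 0.96 on the log2 scale, and replicates 2 and 3 by 0.04 and -0.01. The mean log2 ratio was 1.65 ± 0.21 (SD, n = 3) against 1.27 ± 0.30 (SD, n = 4). The difference of 0.38 (SE 0.19) was larger than the SD of either group, and the 2 groups overlapped. Its exact permutation p (two-sided) was 0.171, or 0.514 after adjustment over the 3 ratios.

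For iron uptake and endosomal transport the values of both groups overlapped. Tfrc, the transferrin receptor gene (ENSMUSG00000022797.16, chromosome 16, 32608920 to 32632794, plus strand), had 9.87, 11.7 and 7.44 CPM in shChi3l1 and 11.3, 10.9, 9.04 and 13.4 CPM in shSC libraries. These levels rest on 183 to 393 reads per library. Its log2 fold change was -0.21 (SE 0.34). Slc11a1, which encodes the divalent metal transporter NRAMP1 of the phagosome and lysosome membrane (ENSMUSG00000026177.11, chromosome 1, 74375195 to 74386062, plus strand), had 376, 465 and 511 CPM in shChi3l1 libraries. In shSC libraries it had 729, 261, 273 and 405 CPM, so that shSC 1 was the highest of all and shSC 2 and 3 the lowest. C57BL/6 mice carry a loss-of-function allele of Slc11a1, and transcript counts do not show protein function. The log2 fold change was 0.11 (SE 0.43), and within replicates the log2 differences were -0.96, 0.83 and 0.91.

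Transcripts of the export gene were set against those of the import gene as reads of Slc40a1 per read of Tfrc, without division by exon length. This ratio was 4.21, 3.24 and 5.10 in shChi3l1 libraries and 5.82, 2.22, 3.31 and 7.34 in shSC libraries. It was highest in shSC 4 and shSC 1 and lowest in shSC 2. The mean log2 ratio was 2.04 ± 0.33 (SD, n = 3) against 2.07 ± 0.78 (SD, n = 4), a difference of -0.03 (SE 0.43; exact two-sided permutation p = 0.971, and 0.971 adjusted over the 3 ratios).

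Hp varied most among the 10 genes, with a highest library 14.1 times its lowest. It encodes haptoglobin, which binds free hemoglobin (ENSMUSG00000031722.10, chromosome 8, 109575128 to 109579172, minus strand). Its level was 117, 54.4 and 37.7 CPM in shChi3l1 and 35.9, 39.4, 56.6 and 8.30 CPM in shSC libraries. The highest value was in shChi3l1 1 and the lowest in shSC 4, and the 5 libraries between them overlapped. Means were 69.8 ± 41.9 CPM (SD, n = 3) and 35.05 ± 19.99 CPM (SD, n = 4). The log2 fold change of 0.99 (SE 0.61, unadjusted p = 0.137, edgeR adjusted p = 0.9998) was the largest of the 10. Without shChi3l1 1 it was 0.37, and without shSC 4 it was 0.67.

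Single monocyte markers differed in how they ran beside Hp. The 8 markers, all tested, summed to 3419 CPM in shChi3l1 1, to 626 CPM in shSC 4 and to 1083 to 2260 CPM in the other 5, and Plac8 made up 2394 CPM of the sum in shChi3l1 1. Plac8 alone of the 8 was highest in shChi3l1 1, while Ccr2 and Fn1 were lowest there, at 60.6 and 4.89 CPM. In shSC 4, Plac8 and Ly6c2, a surface antigen gene of inflammatory monocytes, were lowest (264.8 and 84.8 CPM), whereas Vcan, F13a1 and Fn1 were highest (6.36, 66.2 and 49.97 CPM). Of the 12 neutrophil markers, 5 passed the filter, and the sums of all 12 were 88.7 to 149 CPM in shChi3l1 and 45.8 to 128 CPM in shSC libraries. Csf3r, a cytokine receptor gene, made up 139 and 141 CPM of the sums in shChi3l1 2 and 3. Mean levels were lower in shChi3l1 than in shSC for Retnlg (1.02 against 8.42 CPM) and Mmp8 (2.77 against 7.78 CPM). Retnlg was uneven, with 8.86, 24.0, 0 and 0.774 CPM in shSC libraries 1 to 4. Ly6g, which defines neutrophils, was at or below 0.213 CPM, and S100a9 at or below 3.08 CPM. S100a8 reached 67.4 CPM in shChi3l1 1 and 10.5 CPM or less elsewhere. The part of the monocyte and neutrophil markers in the Hp values was not tested.

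Lcn2 was scarce. It encodes lipocalin 2, which binds the iron carriers of bacteria and is stored in neutrophil granules (ENSMUSG00000026822.14, chromosome 2, 32384633 to 32388252, minus strand). It had 20, 9 and 35 reads in shChi3l1 libraries and 13, 34, 48 and 16 reads in shSC libraries. These are 0.847 ± 0.578 CPM (SD, n = 3) and 0.937 ± 0.510 CPM (SD, n = 4). The log2 fold change was -0.15 (SE 0.75), and the low read numbers limit its precision. Of the 5 neutrophil markers tested, 2 had a log2 fold change above 0 and 3 below 0. Mmp8, a collagenase gene of the granules, was below 0, with 1.62 to 4.81 CPM in shChi3l1 and 3.83 to 11.2 CPM in shSC libraries. Its unadjusted edgeR p of 0.0278 (adjusted p = 0.9998) was the only 1 of the 5 under 0.05. Of all genes, 0.576% were lower at that threshold. Csf3r was above 0, with 14.6 to 141 CPM in shChi3l1 and 22.4 to 89.8 CPM in shSC libraries. The part of neutrophil markers in the Lcn2 values was not tested.

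**Figure D4:**
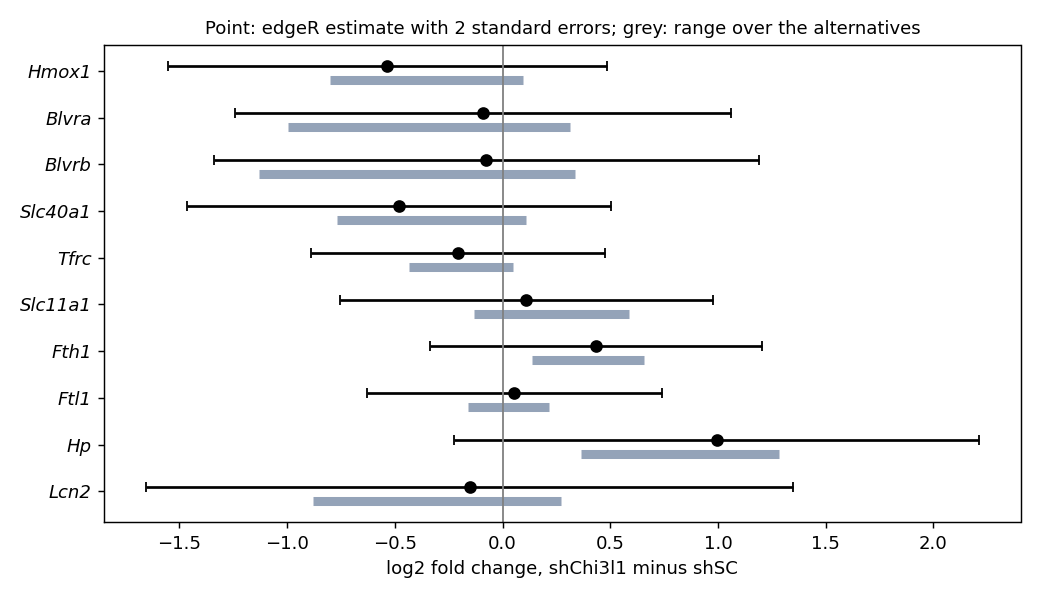
Log2 fold change of each gene (x axis, shChi3l1 minus shSC), with black points for the edgeR estimate over 7 libraries, black bars for 2 standard errors and grey bars for the range over 16 alternatives. Every black bar crosses 0, and the grey bars of Fth1 and Hp alone stay on one side of it.

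Other genes of iron and heme handling were read from 6 fixed lists. None of the 54 tested genes had an unadjusted edgeR p under 0.05, against 1.48% of all genes. The count of genes with a positive log2 fold change moved with the scaling, so each is given beside 57.6% of all genes and with its value when totals alone set the scale, which lowers the median of all genes from 0.07 to -0.13. Of the uptake and reduction list 6 of 11 genes were tested, with 4 above 0 (2 with totals alone) and a median of 0.09. The count was 1 of 6 without shSC 3, 2 of 6 without shChi3l1 2 and 6 of 7 without shChi3l1 1. Trf, the transferrin gene and the most abundant of them per length, had 164 to 585 CPM in shChi3l1 and 178 to 629 CPM in shSC libraries, or a log2 difference of 0.02 (SE 0.56). Steap3, an endosomal ferrireductase gene, was at -0.76 (SE 0.49), with 2.00 to 2.94 CPM against 2.15 to 6.49 CPM. Mcoln1, a lysosomal cation channel gene, was at 0.36 (SE 0.32).

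Genes of iron sensing, storage control and export partners had 8 of 12 members tested, 6 of them above 0 (4 with totals alone, 3 without shChi3l1 2). Hfe, which encodes a partner of transferrin receptors, was the most abundant per length at 51.6 CPM per kilobase and had a log2 fold change of -0.25 (SE 0.51). Cp, the gene of the ferroxidase ceruloplasmin that works with ferroportin, was at 0.94 (SE 0.80). It had 4.34, 37.9 and 11.4 CPM in shChi3l1 and 3.30, 20.7, 4.57 and 8.69 CPM in shSC libraries. Cp was higher in shChi3l1 in each same-numbered replicate, as were 12.5% of all genes, and highest in replicate 2 of both groups. Ncoa4, the receptor that takes ferritin to the lysosome, was at 0.40 (SE 0.52). Hamp, the hepcidin gene, was at or below 0.258 CPM, and Heph and Ftmt had no reads in any library.

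All 11 mitochondrial iron and iron-sulphur cluster genes were tested, with 7 above 0 (4 with totals alone, 4 without shChi3l1 1) and a median of 0.09. The mitochondrial iron importer gene Slc25a28 had 6.94, 7.01 and 7.85 CPM in shChi3l1 and 4.61, 6.10, 5.36 and 5.25 CPM in shSC libraries. It was the only 1 of the 54 genes whose groups did not overlap, at a log2 fold change of 0.45 (SE 0.34, edgeR adjusted p = 0.9998), where 2.49% of all genes did not overlap. Iscu, the scaffold gene of cluster assembly, was at 0.11 (SE 0.32) and Isca1 at 0.29 (SE 0.30). Of the heme synthesis genes 4 of 8 were above 0 (1 with totals alone), with a median of 0.01. That count was 8 of 8 without shSC 1 and 2 of 8 without shSC 3. Alas1, which encodes its first enzyme, was at 0.31 (SE 0.39).

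Heme and hemoglobin uptake, transport and breakdown genes had 9 of 10 members tested, and 9 of 9 were above 0, with a median of 0.45. With totals alone 5 of 9 were above 0, and 7 of 9 when shChi3l1 3 and shSC 4 were both left out. Leaving out 1 library gave 6 or 7 of the 7 to 9 genes then tested. Slc48a1, a heme transporter gene of the phagolysosome, was the most abundant per length and had 145, 147 and 132 CPM in shChi3l1 and 130, 107, 111 and 166 CPM in shSC libraries, or a log2 difference of 0.13 (SE 0.30). Abcg2, an efflux transporter gene that can carry porphyrins, was at 0.63 (SE 0.37). Cd163, the hemoglobin-haptoglobin receptor gene, was at 3.06 (SE 1.36), from 0.213, 0.565 and 1.99 CPM in shChi3l1 and 0.0355, 0.367, 0 and 0 CPM in shSC libraries. Its reads numbered 0 to 49 per library, and the largest number was in shChi3l1 3. Hpx, the hemopexin gene, had no reads. The NRF2 and BACH1 list had 7 of 12 genes above 0 (1 with totals alone, 10 without shChi3l1 3 and shSC 4), with Nqo1 at -0.49 (SE 0.66) and Prdx1 at 0.04 (SE 0.59).

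The genes most like each member in pattern were found by the root mean square difference of centred log2 CPM over the 7 libraries. The search covered 8495 genes with an established symbol whose mean log2 CPM was 2 or more. Genes named only by a model number or clone were left out. For Hmox1 they were Gar1, Dst and Jdp2, at 0.22 to 0.27, where the median gene was at 0.81. For Slc40a1 they were Sgms1, Adk and Rcan1, at 0.23 to 0.31. The values of Gar1, 17.9 CPM in shSC 4 and 5.39 to 10.9 CPM elsewhere, show that the likeness rests on that library. Blvrb was most like Ndufb9, Ciao2a and Emg1, all at 0.09, and Blvra was most like Hilpda (0.09), Socs1 and Sirpb1c. Fth1 was nearest to Plscr1 (0.12), Ftl1 to Gla and the pseudogene Ftl1-ps2 (0.09 each), Tfrc to Rars (0.09), Slc11a1 to Mfsd8 (0.13) and Hp to Mlycd (0.37). For Lcn2 they were the noncoding RNAs Xist, Malat1 and Lncpint, at 0.26 to 0.33, with few Lcn2 reads behind the likeness. Between members the closest pairs were Blvra with Blvrb (0.25), Ftl1 with Tfrc (0.26) and Fth1 with Ftl1 (0.29), and Hmox1 with Slc40a1 was at 0.49. With 7 libraries and 8495 genes, close matches arise for many genes, and these are descriptions of the libraries.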

How the data were processed

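Whole-number counts per gene, 1 file per macrophage library, were deposited by the authors. Per the submitters' processing notes, Trim Galore, HISAT2, featureCounts and mm10 were used. Their versions and settings, and the annotation, are not given in any source used here. Per the labels' protocols, sorted macrophages gave 10 ng of RNA for cDNA synthesis (SMART-Seq, ultra low input) and 1 ng of cDNA for Nextera XT, which does not mark strand. Of 55385 gene IDs, 55144 matched GENCODE M21 names without version, and the other 241 took at most 0.00179% of reads. The hemojuvelin gene is listed there as Hfe2.

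Groups and replicate numbers come from the sample titles. Counts passed filterByExpr (minimum count 10), were scaled by TMM and were tested with edgeR 4.0.16's quasi-likelihood test (R 4.3.3) over 7 libraries, with a term for hairpin alone. Benjamini-Hochberg adjustment was over 15448 genes. Standard errors were derived from the F statistic, 0.5 was added to counts before logarithms, and read ratios were compared by exact permutation of the absolute difference in means.

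The labels call replicates 1 to 3 of both groups paired in a figure, without a stated reason. Deviations from group means correlated across genes at 0.306, 0.26 and 0.188 within these pairs, above the limit of 0.1, while shChi3l1 3 with shSC 2 and shChi3l1 2 with shSC 4 gave 0.322 and 0.2. The pairing enters as an alternative. Alternatives were DESeq2 size factors, upper quartile factors, totals alone, other filters, the replicate block, leaving out 1 library at a time, DESeq2 1.42.0's Wald test, limma 3.58.1's voom with quality weights and, chosen after seeing the data, leaving out shChi3l1 3 and shSC 4.

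The members and lists were chosen with earlier results of these data known. Beyond the 10 members, the rule for named genes took from each pathway list the most abundant per length and the 2 of smallest unadjusted p, and the 3 genes most alike in pattern to each member. It also took from each marker list the most abundant per length and the 1 of smallest p; here marker lists are given by their sums, and of their genes those beside a result. Hamp, Heph, Ftmt, Hpx, Hmox2 and the other marker genes were named after their values were seen. Some items that these rules name are not reported here.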

Additional observations from a re-analysis of the deposited data

Results flagged for a closer look

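Among the 4 shSC libraries, 4 values stood apart by Dixon's test, which divides the gap to the nearest library by the whole range. Of 38 gene or list values examined, chance would mark about 1 in 20 if the values were normally distributed. The test was run on CPM without logarithms, and all 4 values were the highest of their group. A skew toward high values would raise that share. Hmox1 was 924 CPM in shSC 4, with 249 to 333 CPM in the other 3. The summed erythroid markers were 77.6 CPM in the same library, with 6.21 to 17.3 CPM in the others. In shSC 1, Hfe was 385 CPM against 117 to 161 CPM. Hfe was 250, 119 and 131 CPM in shChi3l1 libraries 1 to 3. Cd163 was 0.367 CPM in shSC 2 and at most 0.0355 CPM in the others, which rests on few reads.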

How the results depend on the processing

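No member passed the adjusted threshold under any alternative. DESeq2's Wald test called 1 gene of all, Igkv4-58, and every other setting called 0. Values below are log2 fold changes, and the cause of each change of sign was not tested. With library totals alone 2 members were above 0 and the median of all genes moved from 0.07 to -0.13. Ftl1 was then -0.16, Slc11a1 -0.0225, Trf -0.20, Iscu -0.0721, Slc48a1 -0.0824 and Prdx1 -0.22. DESeq2 size factors and its Wald test each gave Trf -0.0238 and Prdx1 -0.0120, and upper quartile factors gave Trf -0.0906. Without a filter Ftl1 was -0.0122, Trf -0.0118 and Prdx1 -0.0912, and with voom Slc40a1 was 0.0132, Ftl1 -0.0387 and Prdx1 -0.50. The replicate block, over the 3 pairs and without shSC 4, changed no call and gave Hmox1 0.0894, Slc40a1 0.11, Iscu -0.0152 and Prdx1 -0.20. In it the log2 ratio differed by 0.23 for Slc40a1 to Tfrc and by -0.00164 for Blvrb to Blvra. Leaving out shChi3l1 3 and shSC 4, an alternative chosen after seeing the data, gave Blvra 0.31, Blvrb 0.23, Tfrc 0.0465, Slc11a1 -0.00506 and Nqo1 0.0530, and ratio differences of 0.0781 and -0.14. Leaving out 1 library at a time gave 3 to 6 members above 0. The ranges were -0.80 to 0.10 for Hmox1, -0.99 to 0.28 for Blvra, -1.13 to 0.34 for Blvrb, -0.0902 to 0.21 for Ftl1, -0.13 to 0.49 for Slc11a1 and -0.76 to 0.27 for Lcn2. They were -0.45 to 0.40 for Trf, -0.72 to 0.27 for Hfe, -0.25 to 1.69 for Cp, -0.24 to 0.74 for Ncoa4, -0.0801 to 0.22 for Iscu and -0.21 to 0.52 for Alas1. They were -0.00472 to 0.28 for Slc48a1 and -0.94 to 0.42 for Prdx1. Ratio differences ran from -0.34 to 0.23 for Slc40a1 to Tfrc, from -0.11 to 0.23 for Blvrb to Blvra and from 0.26 to 0.47 for Fth1 to Ftl1. Depth limits Lcn2 and Cd163, which had at most 48 and 49 reads in a library.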
